A study of Homo sapiens with 15 samples.

Results

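The response of K562 cells to JQ1-FCPF was compared with their response to JQ1 in cells that had received Cas9FCPF together with sgRNA. The libraries were chosen by the labels, as those with the genotype Cas9FCPF plus sgRNA and either compound, which gave 6 of the 15 libraries of the series, 3 per compound. K562 is a human line from chronic myeloid leukaemia that carries the BCR-ABL1 fusion and expresses erythroid genes; the labels call the cells lymphoblasts. The groups used here were JQ1-FCPF and JQ1 with sgRNA, the same compounds in cells with Cas9FCPF but no sgRNA, each compound at 1 µM, and a control labelled WT for genotype and NT for treatment, which the series text describes as DMSO. Every group held 3 libraries and was taken at 1 h. Cells of the 4 treated groups were transfected with Cas9FCPF; whether control cells were is not stated. In the series title the protein is dCas9, a Cas9 that does not cut, whereas the labels have Cas9. The gene that the sgRNA binds is not named there.

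JQ1 occupies the bromodomains of the BET proteins, which bind acetylated histones and help RNA polymerase II to leave the promoter through the kinase P-TEFb. Genes with strong enhancers, among them MYC in leukaemia cells, are known to be lowered early by BET inhibitors, and HEXIM1, an inhibitor of P-TEFb, and several histone genes are known to be raised. FCPF is a short peptide tag, phenylalanine, cysteine, proline and phenylalanine, known to react with perfluoroaromatic groups; JQ1-FCPF is the compound named for that tag, and JQ1 is the compound without that name. An effect seen with JQ1-FCPF and sgRNA can thus be set beside free JQ1 in cells that carry the same Cas9 and sgRNA.

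In the principal components of all 15 libraries, the first (29.02% of the variance) held JQ1-FCPF with sgRNA at -16.7 in replicate 1, 32.2 in replicate 2 and -14.8 in replicate 3, against 24.6, 19.6 and 22.02 in JQ1 with sgRNA. Replicate 2 of JQ1-FCPF with sgRNA thus lay beyond all 3 JQ1 libraries, while replicates 1 and 3 lay on the side of the control, which ran between -24.7 and -20.9. The JQ1-FCPF libraries without sgRNA lay on that side too, at -18.35, -19.14 and -21.76, and JQ1 without sgRNA at 16.77, 22.68 and 21.21. The root mean square difference of log2 CPM (CPM being counts scaled to library size) from replicate 2 was 0.565 and 0.529 to the other JQ1-FCPF libraries with sgRNA and 0.472, 0.447 and 0.405 to the JQ1 libraries with sgRNA. On the second component (15.5% of the variance), all 3 JQ1-FCPF libraries with sgRNA lay above the rest, at 39.98, 16.4 and 27.2, and JQ1 with sgRNA replicate 1 followed at 12.5, against -5.03 and -4.93 in its replicates 2 and 3. That library also held 7.46% mitochondrially encoded counts, against 3.06% and 2.79% in replicates 2 and 3 of its group. The labels do not tell whether replicate 2 of JQ1-FCPF was exchanged with another library, and this was not tested. Totals of the 6 libraries ran from 12625669 to 17114429 counts. Results are therefore also given with both of these left out, replicate 2 of JQ1-FCPF and replicate 1 of JQ1.

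**Figure D1:**
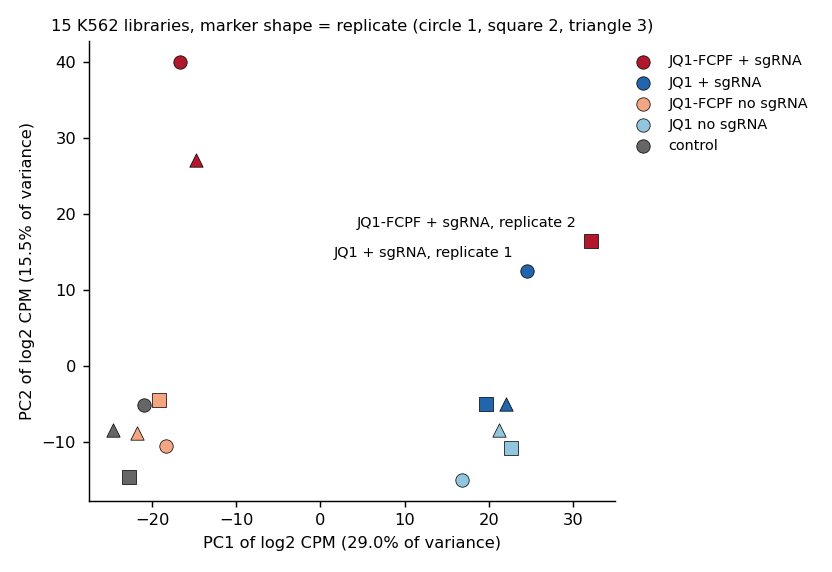
The first and second principal components of log2 CPM over 15517 tested genes are plotted for 15 libraries; colours are groups and marker shapes are replicates. Replicate 2 of JQ1-FCPF with sgRNA lies at 32.2 on the first component, beyond all JQ1 libraries with sgRNA, and replicates 1 and 3 lie at -16.7 and -14.8.

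All 11 defining genes of K562, among them the erythroid factors GATA1, TAL1 and KLF1 and the fetal and embryonic globins, were detected in every library compared. GATA1 was at 198, 236 and 237 CPM in JQ1-FCPF and 214, 278 and 298 CPM in JQ1, both with sgRNA. Summed markers of B cells reached at most 12.5 CPM in JQ1-FCPF and 14.6 CPM in JQ1, and those of T and NK cells at most 30.02 and 31.1 CPM. Of these, BLK and CD8A had no count in any of the 6 libraries. The epithelial and fibroblast lists summed to 926 to 1301 and 1010 to 1224 CPM in JQ1-FCPF, against 925 to 1219 and 952 to 1065 CPM in JQ1, mostly from KRT8, KRT18, KRT19 and VIM, which K562 expresses. None of the markers of other cell types that passed the filter on low counts was called by edgeR or DESeq2; 2 had an unadjusted p under 0.05. Without JQ1-FCPF replicate 2, CD3G, KRT18 and VIM were higher, with log2 fold changes of 1.53, 0.50 and 0.38 (edgeR adjusted p = 0.0081, 0.0111 and 0.0255). Without both libraries that stood apart 1 T and NK cell, 1 epithelial and 1 fibroblast marker were higher, beside 9.76% of all tested genes. RNA came from whole cultures, so fewer cells of a kind and less RNA per cell cannot be told apart.

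With all libraries in, 458 of 15517 tested genes (2.95%) changed between JQ1-FCPF and JQ1 at an adjusted p under 0.05 (edgeR's quasi-likelihood test, Benjamini-Hochberg adjustment): 183 (1.18%) were higher and 275 (1.77%) lower in JQ1-FCPF. DESeq2 called 636 genes, 335 higher and 301 lower, so that 52.7% of its calls were higher, against 39.96% in edgeR. The change exceeded 2-fold for 67 of the higher and 79 of the lower genes. An unadjusted p under 0.05 in edgeR was reached by 2833 genes. The groups did not overlap for 140 of the higher and 264 of the lower genes, whereas over all tested genes JQ1-FCPF lay wholly above JQ1 for 7.11% and wholly below for 8.39%. Whether replicates were separate cultures is not stated, and p-values here reflect the spread among these libraries alone, which may be technical. Leaving out both libraries that stood apart raised the count to 3176, with 9.76% of genes higher and 10.4% lower. Of the 458 genes 447 were among them in the same direction. Both libraries were picked by these same values and the fits share libraries, so neither the rise nor the overlap is independent support. In that fit the count for JQ1-FCPF against JQ1 without sgRNA also rose, from 1210 to 3554, though none of its libraries was left out. Leaving out single libraries gave 68 genes without JQ1-FCPF replicate 1, 2757 without its replicate 2 and 108 without its replicate 3, and 570, 217 and 261 without JQ1 replicates 1, 2 and 3. A fit of the 6 libraries alone, without the spread of the other groups, called 11 genes, 4 higher and 7 lower.

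The clearest pattern was a set of regulators that lay at one level in all 3 JQ1-FCPF libraries. MYC, the oncogenic transcription factor (chromosome 8, 127735434 to 127741434, GRCh38), was at 60.2, 57.3 and 60.98 CPM in JQ1-FCPF, against 103, 123.1 and 156 CPM in JQ1. Replicate 2 of JQ1-FCPF lay close to its partners here, and the highest JQ1-FCPF library lay well below the lowest JQ1 library. MYC fell to 59.5 ± 1.95 CPM in JQ1-FCPF, against 128 ± 26.8 CPM in JQ1 (SD, n = 3 each), a log2 fold change of -1.10 (SE 0.13, adjusted p = 8.14e-05). It was -1.19 (adjusted p = 5.3e-08) without both libraries that stood apart, and its adjusted p stayed at or below 0.000892 whichever of the 6 libraries was left out. MYC was one of the genes that also passed in the fit of the 6 libraries alone, at an adjusted p of 0.0316. For orientation, it averaged 168 CPM in JQ1-FCPF without sgRNA, 153 CPM in JQ1 without sgRNA and 197 CPM in the control. Against the same 3 control libraries, the log2 fold change was -1.73 for JQ1-FCPF with sgRNA and -0.63 for JQ1 with sgRNA. MYC was the only called gene among the 10 tested genes of its neighbourhood on chromosome 8. The noncoding neighbour PVT1 had a log2 fold change of 0.24 and TRIB1, a pseudokinase gene, one of -0.40, neither past the test.

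HES1, BHLHE40 and HEY1, which encode repressors of 1 protein class, fell as well. HES1, a Notch-responsive repressor, was at 14.9, 14.01 and 15.5 CPM in JQ1-FCPF, against 29.8, 38.5 and 42.2 CPM in JQ1. BHLHE40, a repressor of the same protein class that also acts in the circadian clock, was at 45.05, 52.9 and 43.5 CPM in JQ1-FCPF, against 94.9, 93.4 and 98.3 CPM in JQ1. In both genes the groups were far apart and replicate 2 of JQ1-FCPF sat beside replicates 1 and 3. The log2 fold changes were -1.31 (SE 0.13, adjusted p = 9.64e-06) for HES1 and -1.02 (SE 0.090, adjusted p = 2.68e-06) for BHLHE40, and -1.395 and -1.10 without the libraries that stood apart. HEY1, the third member to fall, was at 6.82, 5.59 and 7.06 CPM in JQ1-FCPF, against 10.3, 9.56 and 11.5 CPM in JQ1, a log2 fold change of -0.69 (SE 0.15, adjusted p = 0.0163); its adjusted p was 0.0745, 0.0511 and 0.0704 without JQ1-FCPF replicates 1 and 3 and JQ1 replicate 3. These 3 were the called genes among 25 tested genes of the Notch pathway and its repressors, whose median log2 fold change was -0.02 beside -0.005 over all tested genes. Other tested HES and HEY genes did not pass, with log2 fold changes of 0.13 for HES2, -0.11 for HES4, -0.08 for HES6, -0.48 for HES7, -0.008 for HEY2 and -0.11 for HEYL. The receptor NOTCH1 (0.17) and the DNA-binding partner RBPJ (-0.04) did not pass the test.

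The 250 bases before the start sites of HES1 (chr3:194135898-194136147, plus strand) and BHLHE40 (chr3:4979187-4979436, plus strand) are shown. These genes separated the compounds in all 6 libraries with sgRNA. The sequences come from RefSeq on GRCh38.p14. Capitals mark the letters GTGGGAA in HES1, a binding motif of RBPJ, and CACGTG in BHLHE40, the E-box read by MYC and by BHLHE40 proteins.
HES1: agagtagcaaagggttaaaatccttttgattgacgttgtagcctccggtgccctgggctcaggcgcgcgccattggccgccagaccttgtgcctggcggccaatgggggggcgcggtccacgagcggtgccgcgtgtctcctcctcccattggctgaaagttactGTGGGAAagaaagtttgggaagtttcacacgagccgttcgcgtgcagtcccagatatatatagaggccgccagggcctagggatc
BHLHE40: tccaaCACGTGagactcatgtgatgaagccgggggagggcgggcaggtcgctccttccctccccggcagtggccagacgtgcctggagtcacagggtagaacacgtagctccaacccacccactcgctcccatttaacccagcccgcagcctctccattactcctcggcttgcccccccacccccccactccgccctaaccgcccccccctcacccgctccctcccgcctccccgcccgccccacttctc
Searched on both strands in the same window, GTGGGAA stood in 5.05% and CACGTG in 8.92% of the 10648 tested genes with a promoter in the table. Among called genes with a promoter there, GTGGGAA stood in 3 of 132 higher and 15 of 193 lower genes and CACGTG in 10 of 132 and 14 of 193. These are counts of letters and do not show binding.

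**Figure D2:**
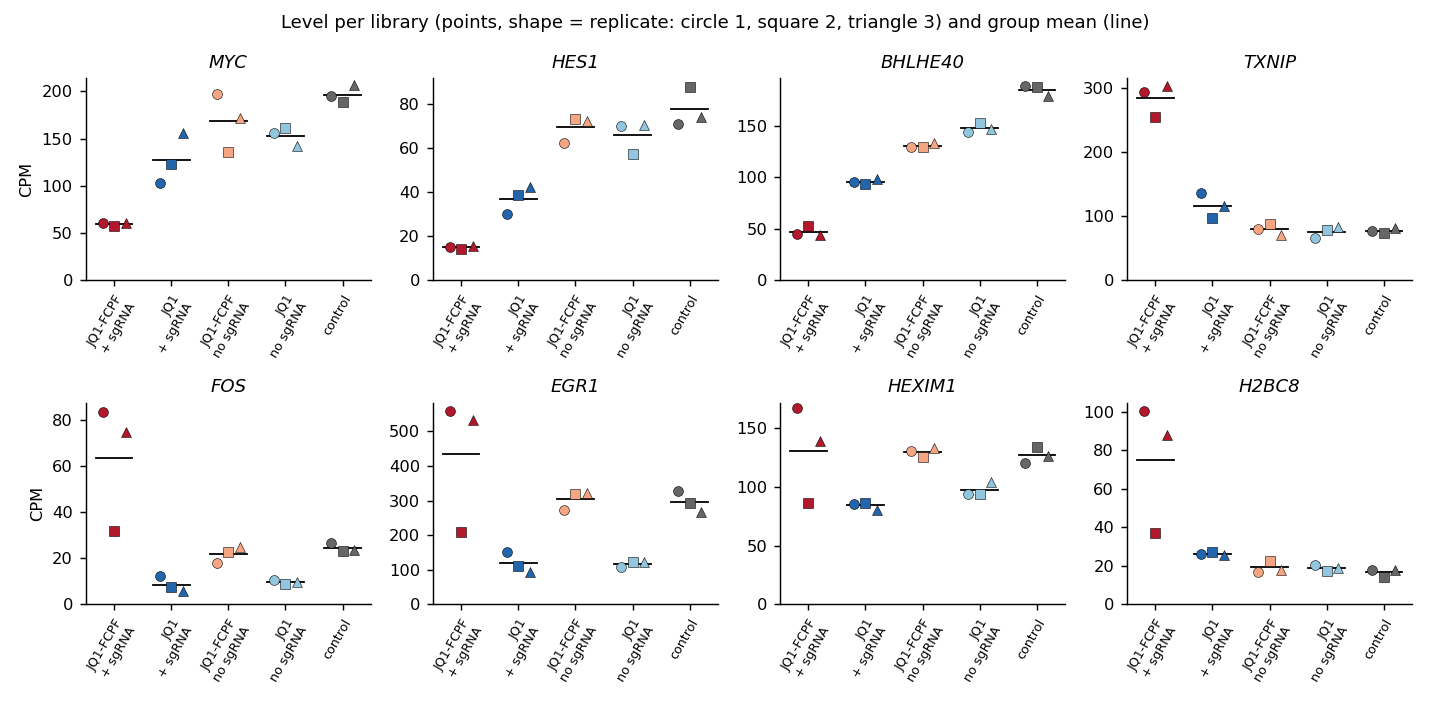
Levels in CPM of 8 genes are plotted per library (points) with group means (lines), from left to right for JQ1-FCPF and JQ1 with sgRNA, then JQ1-FCPF and JQ1 without sgRNA, and last the control; marker shapes are replicates. MYC, HES1, BHLHE40 and TXNIP show 3 JQ1-FCPF libraries with sgRNA close together, whereas in FOS, EGR1, HEXIM1 and H2BC8 replicate 2 lies far below replicates 1 and 3.

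Further genes were lower in all 3 JQ1-FCPF libraries. TGIF1, a repressor in the TGF-beta and SMAD pathway, was at 17.2, 19.9 and 16.8 CPM in JQ1-FCPF, against 32.6, 32.3 and 33.7 CPM in JQ1, a log2 fold change of -0.87 (SE 0.11, adjusted p = 8.14e-05). CCND1, the cyclin D1 gene that drives entry into the cell cycle, was at 26.4, 26.9 and 25.7 CPM in JQ1-FCPF, against 36.5, 42.5 and 41.1 CPM in JQ1, a log2 fold change of -0.60 (SE 0.096, adjusted p = 0.00121). E2F2, a transcription factor of S phase genes, was at 11.5, 14.9 and 12.9 CPM in JQ1-FCPF, against 23.3, 24.7 and 25.03 CPM in JQ1, a log2 fold change of -0.90 (SE 0.12, adjusted p = 0.00024). In all 3 genes every JQ1-FCPF library lay below every JQ1 library, and the call held whichever single library was left out. In the edgeR fit of the 6 libraries alone TGIF1 kept its call, and CCND1 and E2F2 lost theirs (adjusted p = 0.125 and 0.0696). CITED2, a coactivator that binds CBP and p300, was at 6.21, 5.98 and 9.52 CPM in JQ1-FCPF, against 11.2, 18.1 and 15.9 CPM in JQ1, with a log2 fold change of -1.04 (SE 0.19, adjusted p = 0.00443); its replicate 3 lay above the other JQ1-FCPF libraries. SOCS3, a feedback inhibitor of cytokine signalling through STAT proteins, was at 19.1, 23.1 and 17.99 CPM in JQ1-FCPF, against 36.8, 42.3 and 40.02 CPM in JQ1, a log2 fold change of -0.99 (SE 0.12, adjusted p = 8.14e-05). E2F2 was the one called gene of 42 tested E2F and S phase genes, and CCND1 the one of 16 G1 cyclins and CDK inhibitors.

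TXNIP moved the opposite way. It encodes an arrestin that restrains glucose uptake and binds thioredoxin. TXNIP was at 294, 254 and 303 CPM in JQ1-FCPF, against 136, 97.3 and 116 CPM in JQ1. Replicate 2 of JQ1-FCPF was the lowest of its group but still well above the highest JQ1 library. The log2 fold change was 1.28 (SE 0.12, adjusted p = 2.68e-06), a 2.44-fold rise, and 1.49 (adjusted p = 3.37e-11) without the libraries that stood apart. Among 31 tested genes of glycolysis and glucose uptake TXNIP was the only one called. It averaged 79.3 CPM in JQ1-FCPF without sgRNA, 75.7 CPM in JQ1 without sgRNA and 77.3 CPM in the control.

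Histone genes formed the most numerous group of genes that rose. Of 48 tested histone genes 27 were higher in JQ1-FCPF and 0 lower, and the median log2 fold change of the list was 0.93, beside -0.005 over all tested genes. The list also holds variants made outside S phase, of which H1-10 (log2 fold change 0.62, adjusted p = 0.0143) and H3-3B (0.50, adjusted p = 0.017) were called. By class, 11 of 13 H2B, 6 of 7 H3, 5 of 10 H4, 4 of 13 H2A and 1 of 5 H1 genes rose, the last being H1-10. Chromosome 6, where most of these genes are clustered, held 22 of the 27 and 37 of the 48 tested. Near-identical copies can share reads, so the value of a single histone gene is uncertain, and the use of poly(A) selection is not given in the sources used here. Without the libraries that stood apart, where 9.76% of all tested genes were higher, 38 rose and the median was 1.07. Without JQ1-FCPF replicates 1, 2 and 3, 14, 40 and 18 rose, and 25, 21 and 23 without JQ1 replicates 1, 2 and 3. In the fit of the 6 libraries alone, without the spread of the other groups, 2 rose and the median was 0.94. No histone gene fell in any of these fits.

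H2BC8 was at 100.4, 37.1 and 88.2 CPM in JQ1-FCPF, against 26.4, 27.2 and 25.4 CPM in JQ1. H2BC7 was at 31.03, 16.4 and 23.3 CPM in JQ1-FCPF, against 9.54, 6.35 and 6.55 CPM in JQ1. H2BC21, counted among the genes known to rise under BET inhibitors, was at 121, 74.2 and 94.3 CPM in JQ1-FCPF, against 53.4, 37.05 and 36.9 CPM in JQ1. In all 3 the groups did not overlap, but replicate 2 of JQ1-FCPF was the lowest library of its group and, in H2BC8, closer to JQ1. Log2 fold changes were 1.51 (SE 0.22, adjusted p = 0.000453) for H2BC8, 1.65 (SE 0.22, adjusted p = 0.000239) for H2BC7 and 1.18 (SE 0.15, adjusted p = 8.24e-05) for H2BC21. HIST1H3B, an H3 gene of the chromosome 6 cluster now called H3C2, was at 16.6, 10.1 and 14.5 CPM in JQ1-FCPF, against 3.49, 3.21 and 4.89 CPM in JQ1, a log2 fold change of 1.82 (SE 0.22, adjusted p = 8.14e-05). Summed over the tested histone genes, the level was 6684, 4629 and 6285 CPM in JQ1-FCPF, against 3597, 4552 and 4271 CPM in JQ1. Replicate 2 of JQ1-FCPF was thus near the JQ1 libraries in the sum, and JQ1 replicate 1, the library with the large mitochondrial share, was the lowest. In JQ1-FCPF without sgRNA the sum was 4358, 4513 and 4672 CPM, in JQ1 without sgRNA 4559, 4404 and 4419 CPM and in the control 4182, 4794 and 4221 CPM. The predicted gene AL031777.3, which lies in the chromosome 6 histone cluster and whose span overlaps the histone gene H2AC7 and the pseudogene H1-12P, was at 51.95, 12.8 and 43.5 CPM in JQ1-FCPF, against 7.15, 6.81 and 9.12 CPM in JQ1; reads of overlapping genes cannot be told apart without strand.

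The 250 bases before 3 H2B genes that rose are given for H2BC7 (chr6:26199266-26199515, plus strand), H2BC8 (chr6:26216689-26216938, minus strand) and H2BC21 (chr1:149886683-149886932, minus strand), from RefSeq on GRCh38.p14. Capitals mark ATTTGCAT, the octamer read by POU2F1, a motif known from H2B promoters.
H2BC7: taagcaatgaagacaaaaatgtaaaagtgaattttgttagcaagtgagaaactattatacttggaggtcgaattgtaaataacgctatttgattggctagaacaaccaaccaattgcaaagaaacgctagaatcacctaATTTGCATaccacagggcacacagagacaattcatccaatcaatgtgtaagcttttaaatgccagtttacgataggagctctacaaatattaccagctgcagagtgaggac
H2BC8: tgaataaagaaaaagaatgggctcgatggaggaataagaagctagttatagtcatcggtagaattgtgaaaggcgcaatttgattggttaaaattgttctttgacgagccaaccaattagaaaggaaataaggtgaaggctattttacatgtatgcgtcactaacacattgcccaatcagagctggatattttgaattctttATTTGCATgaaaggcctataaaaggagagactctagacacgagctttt
H2BC21: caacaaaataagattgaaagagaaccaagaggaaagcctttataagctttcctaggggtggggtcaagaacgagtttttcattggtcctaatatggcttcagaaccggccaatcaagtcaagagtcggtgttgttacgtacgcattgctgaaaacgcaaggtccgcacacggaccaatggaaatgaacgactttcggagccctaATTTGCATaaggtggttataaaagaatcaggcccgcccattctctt
On either strand the octamer stood in this window in 1.39% of the 10648 tested genes with a promoter in the table. It stood in 13 of the 25 histone genes that rose and had a promoter there, and in 6 of the 18 that did not pass the test. Among all called genes it stood in 16 of 132 higher genes, 13 of them these histone genes, and in 1 of 193 lower genes. These shares describe the promoters of the genes and do not show binding.

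**Figure D3:**
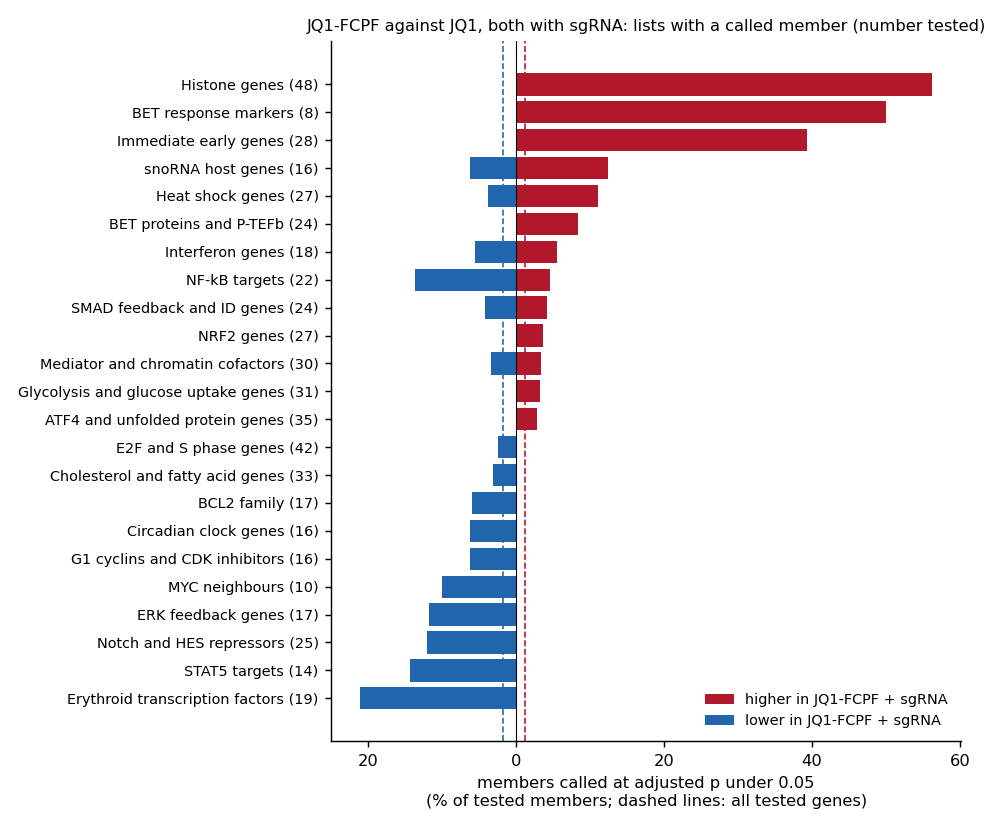
For each gene list with a called member, bars give the percentage of tested members higher (to the right) or lower (to the left) in JQ1-FCPF with sgRNA than in JQ1 with sgRNA; numbers tested stand in brackets and dashed lines mark 1.18% and 1.77% of all tested genes. Histone, BET response and immediate early genes stand out on the higher side, with 27 of 48, 4 of 8 and 11 of 28 members. Lists share members, and H2BC21 and H2BC5 are called in both the histone and the BET response list. Erythroid transcription factors stand out on the lower side, with 4 of 19.

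Immediate early genes, transcription factors and regulators switched on within minutes of growth factor signals, rose as well. Of 28 tested members 11 were higher in JQ1-FCPF and 0 lower, with a median log2 fold change of 0.37. FOS, a subunit of AP-1, was at 83.7, 31.8 and 74.8 CPM in JQ1-FCPF, against 12.4, 7.53 and 5.996 CPM in JQ1. EGR1, a zinc finger factor, was at 559.6, 210.4 and 533 CPM in JQ1-FCPF, against 151, 111 and 94.3 CPM in JQ1. Both genes were lower in every JQ1 library, and replicate 2 of JQ1-FCPF held less than replicates 1 and 3. The log2 fold change of FOS was 2.87 (SE 0.27, adjusted p = 2.68e-06), a 7.32-fold rise and the largest of the protein-coding genes named by the rule; without the libraries that stood apart it was 3.56. For EGR1 it was 1.87 (SE 0.23, adjusted p = 0.000101), and 2.42 without them. JUN was at 59.5, 27.9 and 63.6 CPM in JQ1-FCPF, against 19.4, 17.6 and 23.9 CPM in JQ1, with a log2 fold change of 1.31 (SE 0.19, adjusted p = 0.000495), and JUNB at 172, 90.2 and 177 CPM in JQ1-FCPF, against 74.8, 83.7 and 74.9 CPM in JQ1, with one of 0.91 (SE 0.16, adjusted p = 0.00333). The remaining members that rose were GADD45B, KLF2, ZFP36, IER5, IER2, JUND and ATF3, with log2 fold changes between 0.49 and 1.13. KLF4 (-0.58), NR4A2 (-0.47) and ZFP36L1 (-0.43) had negative values that did not pass the test. Without JQ1-FCPF replicates 1, 2 and 3 the list gave 4, 14 and 6 genes higher, and without JQ1 replicates 1, 2 and 3 it gave 8, 10 and 9. Without both libraries that stood apart, where 9.76% of all tested genes were higher and 10.4% lower, 14 of the list were higher and 1 lower. In the fit of the 6 libraries alone 1 was higher and 0 lower.

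Against the same control libraries, FOS had a log2 fold change of 1.38 in JQ1-FCPF with sgRNA and -1.50 in JQ1 with sgRNA, EGR1 0.55 and -1.32, and JUN -0.16 and -1.47. The control averaged 24.5 CPM of FOS, 297 CPM of EGR1 and 56.4 CPM of JUN. All 3 genes were below the control in JQ1, with adjusted p-values of 0.00198 for FOS, 0.00172 for EGR1 and 0.000178 for JUN, and in JQ1-FCPF the adjusted p against the control was 0.00119 for FOS, 0.153 for EGR1 and 0.675 for JUN. The 250 bases before EGR1 (chr5:138465229-138465478, plus strand, RefSeq, GRCh38.p14) are shown with 2 CArG boxes, the element read by serum response factor, in capitals.
EGR1: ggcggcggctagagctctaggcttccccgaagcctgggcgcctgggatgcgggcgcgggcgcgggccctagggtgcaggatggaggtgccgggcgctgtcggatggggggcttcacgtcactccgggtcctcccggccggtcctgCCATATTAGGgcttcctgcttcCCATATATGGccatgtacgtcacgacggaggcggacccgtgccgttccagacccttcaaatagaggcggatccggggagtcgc
A CArG box, searched on both strands, stood in 0.958% of the tested promoters and in 3 of 132 higher and 2 of 193 lower genes.

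Genes known to respond to BET inhibitors and the elongation machinery were then examined. Of 8 tested BET response markers, TXNIP, H2BC21, H2BC5 and HEXIM1 were higher in JQ1-FCPF and 0 were lower. H2BC21 and H2BC5 are also counted among the histone genes above. In the fit of the 6 libraries alone 1 marker was higher. HEXIM1, which sequesters P-TEFb, was at 167, 86.6 and 139 CPM in JQ1-FCPF, against 85.9, 86.3 and 80.8 CPM in JQ1. Replicate 2 of JQ1-FCPF lay at the level of the highest JQ1 library, and replicates 1 and 3 lay well above it. The log2 fold change was 0.64 (SE 0.15, adjusted p = 0.0202); it was 0.89 (adjusted p = 1.4e-07) without the libraries that stood apart, and the adjusted p was 0.192, 0.105, 0.0564 and 0.0717 without JQ1-FCPF replicates 1 and 3 and JQ1 replicates 2 and 3. Against the same controls HEXIM1 had a log2 fold change of 0.05 in JQ1-FCPF with sgRNA and -0.59 in JQ1 with sgRNA. CCNK, a cyclin that pairs with CDK12 and CDK13, had a log2 fold change of 0.45 (SE 0.12, adjusted p = 0.0438), with adjusted p-values of 0.126, 0.174, 0.171 and 0.0983 without the same 4 libraries in turn. It and HEXIM1 were the called genes among 24 tested BET protein and P-TEFb genes; CDK9, the kinase of P-TEFb, had a log2 fold change of 0.16, which did not pass the test. Among 30 Mediator and chromatin cofactor genes, MED26 rose and MED18 fell, with log2 fold changes of 0.53 (SE 0.14, adjusted p = 0.0429) and -0.59 (SE 0.13, adjusted p = 0.0176). MED26 lost its call without any one of the other libraries than JQ1-FCPF replicate 2, with adjusted p-values up to 0.246, and MED18 lost it without JQ1-FCPF replicate 1 and JQ1 replicates 2 and 3, with values up to 0.108.

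Erythroid transcription factors were the list with the largest share of members that fell, 4 of 19 with 0 higher and a median log2 fold change of -0.27. NFE2, a factor of erythroid and megakaryocytic genes, was at 93.3, 176 and 130.4 CPM in JQ1-FCPF, against 227, 291 and 296 CPM in JQ1, and GFI1B, a repressor needed for red cell development, at 37.2, 88.3 and 47.2 CPM in JQ1-FCPF, against 92.2, 118 and 128 CPM in JQ1. In both the groups did not overlap and replicate 2 was the highest JQ1-FCPF library. The log2 fold changes were -1.03 (SE 0.15, adjusted p = 0.000541) for NFE2 and -0.98 (SE 0.19, adjusted p = 0.00816) for GFI1B, and -1.38 and -1.53 without the libraries that stood apart. LMO2 and TAL1, partners in 1 DNA-binding complex, had smaller changes of -0.45 (SE 0.098, adjusted p = 0.0144) and -0.50 (SE 0.12, adjusted p = 0.0302). GFI1B kept its call except without JQ1-FCPF replicate 1 or 3 (adjusted p = 0.0677 and 0.0679), LMO2 lost its call without JQ1-FCPF replicates 1 and 3 and JQ1 replicate 2 (up to 0.119), and TAL1 without any library but JQ1-FCPF replicate 2 (up to 0.228). GATA1 (-0.23) and KLF1 (-0.39) did not pass. The list gave 1, 7 and 1 members lower without JQ1-FCPF replicates 1, 2 and 3, and 6, 2 and 3 without JQ1 replicates 1, 2 and 3. Without both libraries that stood apart 9 were lower and 1 higher, and the fit of the 6 libraries alone called 0 members. None of 29 tested globin, heme and red cell genes was called by edgeR or DESeq2, and 2 had an unadjusted p under 0.05. Of these 29, 3 were higher and 0 lower without JQ1-FCPF replicate 2 and 1 was lower without JQ1 replicate 1. Without both libraries that stood apart, where 30 genes of the list were tested, 4 were higher and 4 lower. In that fit 9.76% of all tested genes were higher and 10.4% lower, the shares to set beside the counts of both lists.

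Signalling feedback genes fell in small numbers. Of 14 tested STAT5 targets SOCS3 and CISH, a second feedback inhibitor of cytokine receptors, were lower and 0 higher. CISH was at 54.8, 107 and 70.8 CPM in JQ1-FCPF, against 129, 119 and 144 CPM in JQ1, a log2 fold change of -0.75 (SE 0.15, adjusted p = 0.00898), with replicate 2 of JQ1-FCPF close to JQ1; the adjusted p was 0.0745 and 0.0698 without JQ1-FCPF replicates 1 and 3. PIM1, a kinase gene of the same list, was split between the libraries. It was at 131, 652 and 159 CPM in JQ1-FCPF, against 601, 622 and 734 CPM in JQ1, so that replicate 2 lay with JQ1 and replicates 1 and 3 far below. Its log2 fold change of -1.06 did not pass the test (adjusted p = 0.0971) and was -2.21 (adjusted p = 1.05e-14) without the libraries that stood apart. Without those libraries 10.4% of all tested genes were lower. STAT5 targets numbered 9 lower in that fit, 7 without JQ1-FCPF replicate 2 and 5 without JQ1 replicate 1. They numbered 1 lower without JQ1-FCPF replicate 1 or 3. In the fit of the 6 libraries alone 1 was lower.

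Among 22 tested NF-kB targets 3 were lower and 1 higher. NFKBIA, the inhibitor that holds NF-kB in the cytoplasm, was at 9.12, 7.48 and 9.58 CPM in JQ1-FCPF, against 10.99, 14.7 and 15.1 CPM in JQ1, a log2 fold change of -0.63 (SE 0.14, adjusted p = 0.0155), and every JQ1-FCPF library lay below every JQ1 library. BCL3, a nuclear cofactor of NF-kB, was at 1.46, 4.88 and 2.27 CPM in JQ1-FCPF, against 5.82, 8.12 and 7.83 CPM in JQ1, a log2 fold change of -1.35 (SE 0.27, adjusted p = 0.00852). CXCL3, a chemokine gene near the detection limit, was at 0.536, 0.866 and 0.737 CPM in JQ1-FCPF, against 1.75, 2.42 and 1.71 CPM in JQ1, a log2 fold change of -1.44 (SE 0.35, adjusted p = 0.0279). NFKBIZ, another nuclear cofactor, was the member that rose, at 9.35, 4.49 and 9.09 CPM in JQ1-FCPF, against 5.06, 2.88 and 3.37 CPM in JQ1, a log2 fold change of 1.02 (SE 0.25, adjusted p = 0.0282). Without JQ1-FCPF replicate 1 all 4 calls were lost, at adjusted p-values of 0.0741 for NFKBIA, 0.0744 for BCL3, 0.161 for CXCL3 and 0.173 for NFKBIZ. Without its replicate 3 the values were 0.0737 for BCL3, 0.117 for CXCL3 and 0.166 for NFKBIZ. Without JQ1 replicate 2 they were 0.0669 for NFKBIA, 0.109 for CXCL3 and 0.12 for NFKBIZ, and without JQ1 replicate 3 0.0731 for NFKBIA and 0.0931 for NFKBIZ. The list held 2 higher and 8 lower genes without both libraries that stood apart, and 0 calls in the fit of the 6 libraries alone. Of all tested genes 9.76% were higher and 10.4% lower without the libraries that stood apart. Of 17 tested ERK feedback genes 2 fell, CCND1 and SPRY1, an inhibitor of receptor tyrosine kinase signalling at 0.383, 0.6296 and 0.4299 CPM in JQ1-FCPF, against 1.22, 1.898 and 1.65 CPM in JQ1, a log2 fold change of -1.72 (SE 0.37, adjusted p = 0.0143). SPRY1 lost its call without JQ1-FCPF replicates 1 and 3 and JQ1 replicate 2, at adjusted p-values up to 0.099.

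Heat shock genes gave 3 higher and 1 lower of 27 tested members. DNAJB1, a cochaperone of HSP70, was at 252, 124 and 271 CPM in JQ1-FCPF, against 85.03, 110.5 and 126 CPM in JQ1, and HSPA1B, an inducible HSP70 gene, at 279.6, 119 and 304 CPM in JQ1-FCPF, against 111, 128 and 119.9 CPM in JQ1. In both, replicate 2 of JQ1-FCPF lay within the range of the JQ1 libraries and replicates 1 and 3 lay far above it. The log2 fold changes were 1.01 (SE 0.19, adjusted p = 0.00709) and 0.97 (SE 0.21, adjusted p = 0.0135), and 1.16 and 1.25 without the libraries that stood apart. DNAJB6, another cochaperone, had a log2 fold change of 0.48 (SE 0.11, adjusted p = 0.0202) and HSPA1L, expressed at a few CPM, one of -1.18 (SE 0.22, adjusted p = 0.00689). Without JQ1-FCPF replicates 1 and 3 the adjusted p was 0.0617 and 0.0566 for DNAJB1, 0.0992 and 0.111 for HSPA1B, 0.0607 and 0.06 for HSPA1L and 0.173 and 0.117 for DNAJB6, which also lost its call without JQ1 replicates 2 and 3 (0.0564 and 0.0753). HSPA1A and HSPA1B are near-identical, so their reads can be shared. The list gave 0 calls in either direction without JQ1-FCPF replicate 1 or 3 and in the fit of the 6 libraries alone. It gave 13 higher and 1 lower without JQ1-FCPF replicate 2, and 14 higher and 1 lower without both libraries that stood apart. That last fit called 9.76% of all tested genes higher and 10.4% lower. Of 16 tested noncoding genes that host small nucleolar RNAs, 2 were higher and 1 lower, against 5 and 1 without JQ1-FCPF replicate 2 and 5 and 2 without both libraries that stood apart. These counts were 0 and 1, and 1 and 0, without JQ1-FCPF replicates 1 and 3, and 1 and 1 without JQ1 replicate 2 or 3. SNHG1 was at 646, 258 and 552 CPM in JQ1-FCPF, against 269.8, 205 and 184 CPM in JQ1, a log2 fold change of 1.15 (SE 0.22, adjusted p = 0.00723), with replicate 2 of JQ1-FCPF again among the JQ1 libraries. SNHG15 was at 23.5, 22.6 and 21.6 CPM in JQ1-FCPF, against 39.1, 36.9 and 30.8 CPM in JQ1, a log2 fold change of -0.66 (SE 0.13, adjusted p = 0.00803), with all 3 JQ1-FCPF libraries below JQ1. The adjusted p of SNHG1 was 0.0744 without JQ1-FCPF replicate 1, and that of SNHG15 was 0.0541 without replicate 3. SNHG12 was the other member that rose, with a log2 fold change of 0.81 (adjusted p = 0.0413), and it lost its call without JQ1-FCPF replicates 1 and 3 (0.279 and 0.190) and JQ1 replicates 2 and 3 (0.120 each).

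The lists of MYC targets and of the MYC dimerisation network held no edgeR call, unlike the gene itself. None of 58 tested MYC target genes was called by edgeR, where 18 had an unadjusted p under 0.05. DESeq2 called 5, all higher, and the median log2 fold change of the list was 0.14. NCL, the nucleolin gene and the member with the smallest p, was at 1602, 1142 and 1604 CPM in JQ1-FCPF, against 1021, 1132 and 1130 CPM in JQ1 (adjusted p = 0.0832). Without the libraries that stood apart 20 MYC targets were higher and 1 lower, and 23 were higher without JQ1-FCPF replicate 2. In the comparison without sgRNA 9 of these 58 targets were higher and 0 lower, with a median of 0.24, where 4.11% of all tested genes were higher. MYCL, the member of the MYC dimerisation network with the smallest p, had a log2 fold change of -0.65 (adjusted p = 0.132). Of the 11 tested genes of that network 0 were called by edgeR or DESeq2, and 1 had an unadjusted p under 0.05. Without JQ1-FCPF replicate 2, MYCL had a log2 fold change of -1.20 (adjusted p = 3.8e-05) and 2 genes of the network were lower; without both libraries that stood apart 3 were lower. There was no edgeR call among 74 ribosomal protein, 40 nuclear respiratory chain, 38 G2/M, 24 p53 target, 12 polyamine and 9 myeloid and megakaryocytic genes. At an unadjusted p under 0.05 these lists held 2, 2, 5, 8, 4 and 2 genes in the same order, and DESeq2 called 1, 0, 1, 0, 2 and 0. Over all genes, 2833 of 15517 had an unadjusted p under 0.05. Without JQ1-FCPF replicate 2, edgeR called 1 ribosomal protein gene higher and 1 lower, 2 and 1 respiratory chain genes and 1 and 3 G2/M genes. It also called 2 and 5 p53 targets, 6 and 0 polyamine genes, and 1 and 2 myeloid and megakaryocytic genes. Over all tested genes that fit called 1298 higher and 1459 lower. Without both libraries that stood apart edgeR called, higher and lower in the same order of lists, 1 and 2, 2 and 3, 2 and 4, 2 and 7, 6 and 0, and 1 and 3. Over all genes tested in that fit 9.76% were higher and 10.4% lower. Without JQ1 replicate 1 each of these lists held 1 call but the myeloid and megakaryocytic one, which held 1 higher and 1 lower, and without JQ1 replicate 2 the p53 targets held 1 lower. For the 13 genes encoded in mitochondria the median log2 fold change was 0.13 with no call by edgeR or DESeq2 and none at an unadjusted p under 0.05. Without the libraries that stood apart, of which JQ1 replicate 1 had the large mitochondrial share, their median was 0.73, with 7 higher and 0 lower. With the genes encoded in mitochondria left out before scaling, the comparison again called 458 genes, 185 higher and 273 lower; of the named genes GCLC lost its call (adjusted p = 0.0503). Single members of other lists were called. IRF7 and IRF1, regulators of interferon genes, had log2 fold changes of 0.89 (SE 0.18, adjusted p = 0.00816) and -0.68 (SE 0.15, adjusted p = 0.016), with adjusted p-values up to 0.09 and 0.0903 when single libraries were left out. SKI, a repressor of SMAD signalling, had one of 0.47 (SE 0.11, adjusted p = 0.0176), GCLC, an enzyme of glutathione synthesis, 0.54 (SE 0.15, adjusted p = 0.0473), MSMO1, an enzyme of cholesterol synthesis, -0.65 (SE 0.17, adjusted p = 0.0437), and BCL2L11, a promoter of cell death, -0.38 (SE 0.099, adjusted p = 0.0413). With single libraries left out the adjusted p reached 0.149 for SKI, 0.275 for GCLC, 0.26 for MSMO1 and 0.219 for BCL2L11. Each of these 6 calls was lost without JQ1-FCPF replicate 1, and all but that of IRF7 also without its replicate 3 and without JQ1 replicate 2.

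Protein-coding genes with a mean of at least 5 CPM and no overlap between the groups that changed most included others outside these lists. RHOH, a GTPase of blood cells, was at 4.98, 9.37 and 5.404 CPM in JQ1-FCPF, against 13.3, 17.9 and 16.6 CPM in JQ1, a log2 fold change of -1.28 (SE 0.18, adjusted p = 0.000254). INKA1, an inhibitor of the kinase PAK4, was at 6.51, 7.32 and 8.54 CPM in JQ1-FCPF, against 11.5, 18.6 and 17.6 CPM in JQ1, a log2 fold change of -1.08 (SE 0.16, adjusted p = 0.000676). Each JQ1-FCPF library was below each JQ1 library in both, and both calls held whichever library was left out. Both were lost in the edgeR fit of the 6 libraries alone (adjusted p = 0.101 and 0.11). Further genes fell at a few CPM, with log2 fold changes of -1.23 (SE 0.21, adjusted p = 0.00263) for CCNO, -1.02 (SE 0.18, adjusted p = 0.00295) for ZNF133, -1.11 (SE 0.21, adjusted p = 0.00618) for ZNF792 and -1.05 (SE 0.20, adjusted p = 0.00618) for LRATD1. ZNF792 lost its call without JQ1-FCPF replicate 1 (adjusted p = 0.0618) and LRATD1 without replicate 1 or 3 (0.0617 and 0.0566). On the higher side the 12 genes with the largest rise, among those with no overlap between the groups, were FOS, EGR1, JUN, TXNIP, AL031777.3 and 7 histone genes. Of the histone genes H4C8 and H2BC17 lost their calls without JQ1-FCPF replicate 1, at adjusted p-values of 0.0602 and 0.0607.

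Without sgRNA, JQ1-FCPF and JQ1 differed for 1210 genes (7.80%), 638 (4.11%) higher and 572 (3.69%) lower in JQ1-FCPF, from other libraries than those with sgRNA. Of the 458 genes called with sgRNA 48 were called in the same direction without it and 9 in the opposite one, and 401 were not called there. That is 10.5% and 1.97% of the 458, and 3.97% and 0.744% of the 1210. A call in 1 comparison and none in the other does not by itself show a difference between them. The difference between the compound effects with and without sgRNA, the interaction, was called for 122 genes (0.786%), positive for 30 (0.193%) and negative for 92 (0.593%). Among the 458 genes called with sgRNA, the interaction was called for 72, in the direction of the change with sgRNA, and not for 386. Leaving out single libraries of the comparison without sgRNA gave 973, 302 and 136 genes for JQ1-FCPF replicates 1, 2 and 3 and 280, 76 and 370 for JQ1 replicates 1, 2 and 3. For the interaction the counts were 74, 346 and 93 without JQ1-FCPF with sgRNA replicates 1, 2 and 3, 141, 89 and 104 without those of JQ1 with sgRNA, 136, 62 and 58 without those of JQ1-FCPF without sgRNA, and 68, 50 and 61 without those of JQ1 without sgRNA. Without both libraries that stood apart the interaction was called for 511 genes.

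**Figure D4:**
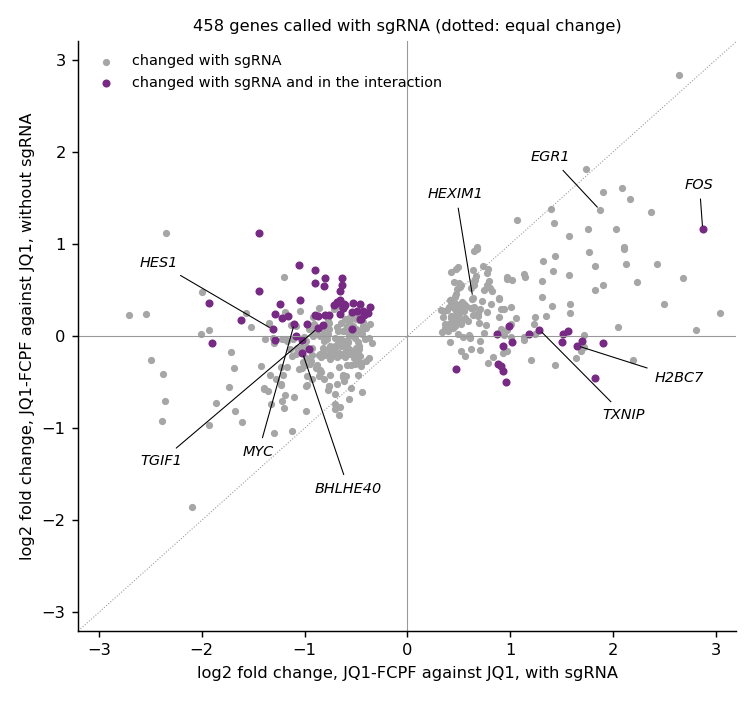
For the 458 genes called with sgRNA, the log2 fold change of JQ1-FCPF against JQ1 with sgRNA (x axis) is plotted against that without sgRNA (y axis); purple points were also called in the interaction and the dotted line marks equal change. MYC, HES1, BHLHE40, TGIF1, TXNIP and H2BC7 lie near 0 on the y axis, whereas EGR1 lies at 1.87 and 1.37.

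Most of these regulators were called with sgRNA and not without it, and the difference between the compound effects passed the test. MYC was at 198, 136 and 172 CPM in JQ1-FCPF without sgRNA, against 156, 161 and 143 CPM in JQ1 without sgRNA, groups that overlapped. Its log2 fold change there was 0.14 (95% interval -0.14 to 0.41), and the interaction was -1.24 (adjusted p = 0.00186). The interaction was -1.39 (adjusted p = 0.0012) for HES1, -0.84 (adjusted p = 0.00186) for BHLHE40, -0.96 (adjusted p = 0.00186) for TGIF1 and -1.12 (adjusted p = 0.00186) for E2F2. It was 1.22 (adjusted p = 0.00124) for TXNIP. CCND1 was lower in JQ1-FCPF with sgRNA and higher without it, with a log2 fold change of 0.34 without sgRNA (adjusted p = 0.0338), and its interaction was -0.94 (adjusted p = 0.00134). LPAR5, a receptor for lysophosphatidic acid, was at 6.13, 5.51 and 6.63 CPM in JQ1-FCPF with sgRNA, against 10.3, 10.5 and 11.1 CPM in JQ1 with sgRNA, and at 20.2, 17.9 and 22.3 CPM in JQ1-FCPF without sgRNA, against 13.2, 12.1 and 13.7 CPM in JQ1 without sgRNA. It fell with sgRNA and rose without it, and its interaction was -1.44 (adjusted p = 0.0012). Calls of the interaction for these 8 genes held whichever of the 12 treated libraries was left out.

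Of 48 histone genes 0 were called by edgeR without sgRNA, where 3 had an unadjusted p under 0.05 and DESeq2 called 1. Their median log2 fold change there was -0.01, and 13 were called in the interaction, all positive. H2BC8 was at 16.9, 22.7 and 18 CPM in JQ1-FCPF without sgRNA, against 20.5, 17.2 and 18.9 CPM in JQ1 without sgRNA. H2AC11 had an interaction of 1.23 (adjusted p = 0.00313) and H3C10 one of 1.04 (adjusted p = 0.0049). The noncoding gene LINC02432 was at 59.99, 48.6 and 51.3 CPM in JQ1-FCPF with sgRNA, against 37.1, 22.3 and 24.2 CPM in JQ1 with sgRNA, and had an interaction of 1.31 (adjusted p = 0.00314). Of the immediate early genes 3 were higher in JQ1-FCPF without sgRNA and 0 lower. EGR1 was at 274, 320.4 and 322 CPM in JQ1-FCPF without sgRNA, against 108, 123.2 and 122.7 CPM in JQ1 without sgRNA, a log2 fold change of 1.37 (adjusted p = 0.00407), and its interaction of 0.50 did not pass (adjusted p = 0.499). FOS differed by 1.16 without sgRNA (adjusted p = 0.0165) and had an interaction of 1.71 (adjusted p = 0.0325), which was lost without any one of the treated libraries but replicate 2 of JQ1-FCPF and replicate 1 of JQ1, both with sgRNA, at adjusted p-values between 0.0552 and 0.0938. SOCS3 was likewise lower in JQ1-FCPF without sgRNA, with a log2 fold change of -0.81 (adjusted p = 0.00281), with an interaction of -0.18 (adjusted p = 0.663).

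The place of replicate 2 among the libraries is given as a description. Of 3156 genes called without the libraries that stood apart and tested with them, replicate 2 of JQ1-FCPF lay nearer the mean of the JQ1 libraries than the mean of replicates 1 and 3 for 2456 (77.8%), and at or beyond the JQ1 mean for 1315. On a scale with 0 at the JQ1 mean and 1 at the mean of replicates 1 and 3, the median position of replicate 2 was 0.102. These genes were called for a difference between replicates 1 and 3 and JQ1, so this value is set partly by that choice. Among the 458 genes called with all libraries the median position was 0.512, and 223 lay nearer JQ1; these genes had to differ with replicate 2 included, so the second value is set partly by that call. Genes where replicate 2 was lowest beside its partners, by the rule for naming genes, included NEFH, AQP3, PRKAR1B, SERTAD1, AL031777.3 and H4C8. NEFH, a neurofilament gene, was at 62.4, 16.6 and 57.8 CPM in JQ1-FCPF, against 18.7, 24.7 and 22.3 CPM in JQ1, and AQP3, a water channel gene, at 52.6, 18.3 and 53.5 CPM in JQ1-FCPF, against 19.5, 27.1 and 25.3 CPM in JQ1. PRKAR1B, a regulatory subunit of protein kinase A, was at 46.2, 17.5 and 48.95 CPM in JQ1-FCPF, against 20.8, 29.3 and 28.5 CPM in JQ1. In these genes replicate 2 lay below all 3 JQ1 libraries and replicates 1 and 3 lay above them.

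Genes where replicate 2 was highest beside its partners were PIM1, AKNA, SEC24D, ASS1, HEMGN and S100P. HEMGN, an erythroid nuclear protein, was at 27.7, 67.8 and 26.1 CPM in JQ1-FCPF, against 67.9, 64.5 and 71.3 CPM in JQ1. ASS1, an enzyme of arginine synthesis, was at 21.1, 62.4 and 20.1 CPM in JQ1-FCPF, against 34.1, 39.7 and 43.8 CPM in JQ1, and AKNA, a transcription factor gene, at 18.9, 70.3 and 17.3 CPM in JQ1-FCPF, against 38.1, 34.5 and 44.5 CPM in JQ1. For HEMGN replicate 2 lay within the JQ1 range, and for ASS1 and AKNA it lay above it, with replicates 1 and 3 below. JQ1 replicate 1 differed from its own partners mostly in the mitochondrial genes, among them MT-ATP6 at 8852, 3553 and 2989 CPM in JQ1, and in genes that were lowest there, among them MRPL54, C4orf48, NXT1, RPP25L and S100P. MRPL54, a gene of the mitochondrial ribosome, was at 50.03, 36.8 and 47.7 CPM in JQ1-FCPF, against 24.8, 54.01 and 54.4 CPM in JQ1. These differences between single libraries are values without a test.

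**Figure D5:**
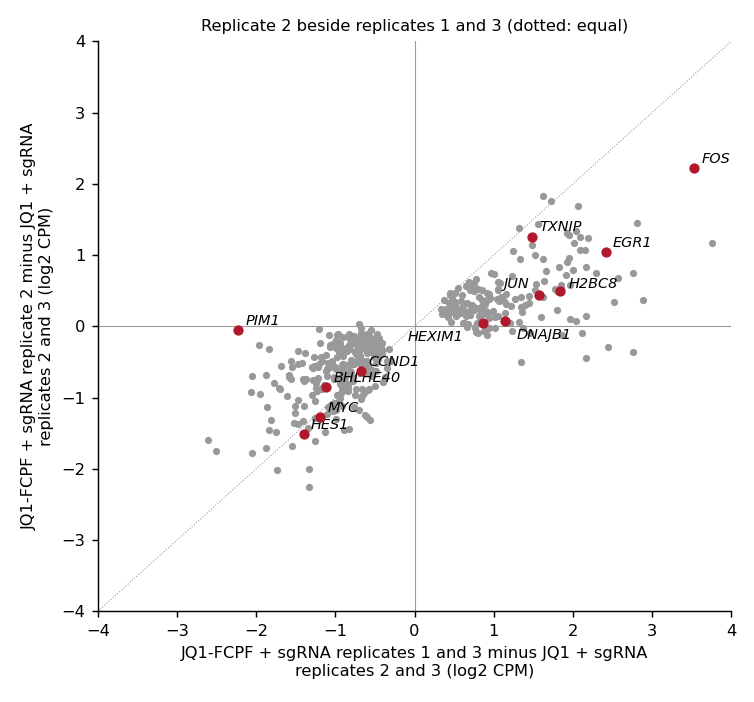
For the 458 called genes (grey) and 12 named genes (red), the difference of JQ1-FCPF with sgRNA replicates 1 and 3 from the mean of JQ1 with sgRNA replicates 2 and 3 (x axis, log2 CPM) is plotted against that of JQ1-FCPF with sgRNA replicate 2 (y axis, log2 CPM). MYC, HES1, BHLHE40, CCND1 and TXNIP lie near the dotted line of equality, whereas PIM1, HEXIM1 and DNAJB1 lie near 0 on the y axis.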

How the data were processed

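Total RNA of 15 K562 libraries was analysed, 3 per group. For each library the authors deposited a table with a raw count for every gene, per the file headers in the column layout of featureCounts, with coordinates, length and count. Aligner, build, library kit and strand setting were not stated in the sources used here. Of 57500 gene identifiers per library 56898 were found in GENCODE 29, 96.3% of them with the same start and end, so positions are on GRCh38, and names came from the files' identifiers through a table of Ensembl identifiers. Library totals ran from 12625669 to 17544518 counts. Counts were filtered with filterByExpr (15517 genes), scaled by TMM and fitted for all 15 libraries together with edgeR 4.0.16 (quasi-likelihood test, R 4.3.3), with Benjamini-Hochberg adjustment over all tested genes. Levels are CPM on scaled library sizes, and fold changes are fitted values. Promoters and chromosomes came from RefSeq (GRCh38.p14).

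Genes named are MYC; up to 12 protein-coding genes per direction with the largest fold change among called genes with a mean of at least 5 CPM and no overlap between groups; up to 4 called members per list with the smallest p, or 1 where none was called; up to 8 genes per direction with the smallest p in the interaction; up to 6 genes per direction that set apart each library that stood apart; and the K562 markers. Others were named to complete a count or a list, and some genes are not reported here. The comparisons, the gene lists and these rules were chosen with earlier results of these data known. As alternatives, DESeq2 1.42.0 was run, and edgeR with the size factors of DESeq2, without a filter, on the 6 libraries alone, with a test against a fold of 1.2, with the title letter as replicate block, without mitochondrial genes before scaling, and with libraries left out. The fit was tested on simulated data. No set of genes was tested as a set. Title letters are taken as replicate numbers; residuals of same-letter libraries of JQ1-FCPF and JQ1 with sgRNA correlated at 0.0925, -0.157 and 0.105, so the letters were not treated as pairs.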

Additional observations from a re-analysis of the deposited data

Results flagged for a closer look

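The effect of JQ1-FCPF against JQ1 differed between cells with and without sgRNA for the following named genes, by the interaction test of edgeR at an adjusted p under 0.05. Values are the log2 fold change with sgRNA minus that without it. Among histone genes the difference was 2.27 for HIST1H3B, 1.76 for H2BC7, 1.57 for H2BC9, 1.503 for H2BC18, 1.49 for H2BC8, 1.23 for H2AC11, 1.16 for H2BC21, 1.08 for H2BC5, 1.04 for H3C10, 0.88 for H2BC4 and 0.84 for H2BC11. Among other genes with a positive difference it was 1.71 for FOS, 1.31 for LINC02432, 1.22 for TXNIP and 1.17 for SAT1; SAT1, the enzyme that acetylates polyamines, was itself not called with sgRNA (log2 fold change 0.37, adjusted p = 0.102).

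Negative differences were -2.56 for CXCL3, -1.61 for ZNF689, -1.44 for LPAR5, -1.43 for CITED2, -1.39 for HES1, -1.31 for PHACTR1, -1.24 for RHOH, -1.24 for MYC and -1.19 for NFKBIA. Further ones were -1.15 for SNHG15, -1.12 for E2F2, -1.08 for INKA1, -1.04 for HEY1, -0.98 for NFE2, -0.96 for TGIF1, -0.94 for CCND1, -0.84 for BHLHE40 and -0.64 for LMO2. CXCL3 had the most negative value at under 3 CPM in each of the 6 libraries with sgRNA. PHACTR1 was at 13.4, 9.29 and 13.6 CPM in JQ1-FCPF with sgRNA, against 17.5, 16.4 and 15.97 CPM in JQ1 with sgRNA, and was not called there (adjusted p = 0.0638). Its values without sgRNA were 32.4, 30.3 and 27.7 CPM in JQ1-FCPF and 17.8, 16.1 and 15.9 CPM in JQ1.

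Some of these calls were lost when single libraries were left out, at adjusted p-values of up to 0.0938 for FOS, 0.117 for H2BC18, 0.0907 for NFE2, 0.0825 for H2BC8, 0.0981 for LMO2, 0.0646 for INKA1, 0.0697 for H2BC4, 0.0644 for H2BC9, 0.0585 for HEY1, 0.051 for H2BC11 and 0.0524 for H2BC7. Leaving out JQ1-FCPF with sgRNA replicate 1 ended the call of FOS, H2BC18, H2BC8, INKA1, NFE2, H2BC4 and LMO2. Leaving out JQ1-FCPF with sgRNA replicate 3 ended the call of FOS, H2BC18, H2BC8, NFE2 and LMO2. Leaving out JQ1-FCPF without sgRNA replicate 1 ended the call of FOS, H2BC18, H2BC8 and H2BC9. Leaving out JQ1-FCPF without sgRNA replicate 2 ended the call of FOS, H2BC18, INKA1, NFE2 and H2BC4. Leaving out JQ1-FCPF without sgRNA replicate 3 ended the call of FOS, H2BC18, H2BC8, H2BC9, INKA1, NFE2, HEY1 and LMO2. Leaving out JQ1 with sgRNA replicate 2 ended the call of FOS, H2BC18, INKA1, NFE2 and LMO2. Leaving out JQ1 with sgRNA replicate 3 ended the call of FOS, H2BC18, H2BC8, INKA1, NFE2 and LMO2. Leaving out JQ1 without sgRNA replicate 1 ended the call of FOS, H2BC7, H2BC18, H2BC8, NFE2, H2BC4, H2BC11 and LMO2. Leaving out JQ1 without sgRNA replicate 2 ended the call of FOS, H2BC18, H2BC8, INKA1, NFE2, HEY1 and LMO2. Leaving out JQ1 without sgRNA replicate 3 ended the call of FOS, H2BC18, H2BC8, H2BC9, INKA1, NFE2, H2BC4, HEY1 and LMO2. The call of H2BC18 was also lost with the title letter as replicate block (0.0571).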

How the results depend on the processing

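The comparison with sgRNA called 458 genes, against 3176 without the 2 libraries that stood apart, 822 with no filter on low counts, 11 from the 6 libraries alone and 127 tested against a fold of 1.2. Leaving out single libraries gave 68 to 2757. The comparison without sgRNA called 1210 genes, 3554 without the libraries that stood apart, and 76 to 973 with single libraries left out. The interaction called 122 genes, 254 with DESeq2, 511 without the libraries that stood apart, 316 with no filter, and 50 to 346 with single libraries left out. With the title letter as replicate block, the counts were 380, 1122 and 93. Other scalings moved the median of all tested genes by less than 0.1 on the log2 scale. The log2 fold change of MYC stayed between -1.22 and -0.92 and its interaction between -1.37 and -1.06 with single libraries left out. Of the 67 named genes called, 33 kept their call whichever of the 6 libraries was left out. In the fit of the 6 libraries alone 58 of the 67 lost their call. No value changed sign with a call. With 3 libraries per group, genes at a few CPM are the least precise.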

Other observations

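Genes in this part were chosen after their values were seen. MIR223HG, the host transcript of the myeloid microRNA miR-223, was at 15.7, 34.1 and 15.2 CPM in JQ1-FCPF with sgRNA, against 111, 65.01 and 64.9 CPM in JQ1 with sgRNA. The groups did not overlap, the log2 fold change was -1.90 (SE 0.26, adjusted p = 0.000286) and the call held whichever of the 6 libraries was left out; the interaction was -1.82 (adjusted p = 0.0154). MIR17HG, the host of the miR-17-92 cluster and a known MYC target, was at 14.4, 10.6 and 12.5 CPM in JQ1-FCPF with sgRNA, against 27.5, 19.8 and 18.4 CPM in JQ1 with sgRNA, a log2 fold change of -0.81 (SE 0.18, adjusted p = 0.0143). Its adjusted p was 0.0698 without JQ1-FCPF replicate 3 and 0.058 without JQ1 replicate 1. MIR223HG and MIR17HG were the 2 called genes among 26 tested microRNA host genes (7.69% lower, beside 1.77% of all tested genes). MIR17HG was picked for its value, and the list of 58 MYC targets, which does not hold it, had 0 calls and a median log2 fold change of 0.14. Whether its change depends on MYC was not tested.

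Genes with names that begin with ZNF, most of which encode zinc finger proteins, had 0 higher and 28 lower of 462 tested (6.06% lower, beside 1.77% of all tested genes). Their median log2 fold change was -0.17, beside -0.005 over all tested genes, and 320 (69.3%) had a negative value. Negative values made up 48.3% of protein-coding genes and 63.1% of long noncoding genes, whose median was -0.14. ZNF genes had a median level of 6.86 CPM, beside 16.8 CPM over all tested genes. Whether the shift is particular to ZNF genes was not tested. The lower count of ZNF genes was 3, 79 and 4 without JQ1-FCPF replicates 1, 2 and 3, and 19, 15 and 14 without JQ1 replicates 1, 2 and 3. Over all tested genes these fits called 39, 1459 and 63, and 290, 137 and 169 genes lower. Without both libraries that stood apart 24 were higher and 71 lower, where 9.76% of all tested genes were higher and 10.4% lower. Without sgRNA 28 were higher and 10 lower in JQ1-FCPF than in JQ1, where 4.11% of all tested genes were higher and 3.69% lower.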
